A study of Gallus gallus with 4 samples.

Results

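LMOD2, TMOD1, TMOD4 and CAPZA2 encode proteins that sit at the ends of the actin thin filaments of muscle. The 4 genes were chosen by their symbols on the array platform, with their ratios in this comparison already known, out of 3494 named genes measured on all 4 arrays. Each is read by 1 feature: 31296 for LMOD2, 31926 for TMOD1, 43339 for TMOD4 and 37287 for CAPZA2. The ratios of these 4 genes are therefore given as a description, without a test.

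The breast muscle came from 1 line of male broilers, and birds labelled High Efficiency were compared with birds labelled Low Efficiency. Feed efficiency is the weight gained per unit of feed. It was measured on individually fed birds between 6 and 7 weeks of age, which ate a maize and soy feed with roughly 20.5% protein and received no other treatment. Each of the 4 arrays carried High Efficiency RNA labelled with Cy5 and Low Efficiency RNA labelled with Cy3, and 0 arrays were dye-swapped, so that dye and group cannot be told apart. The labels call the arrays biological replicates, and whether birds were pooled is not given. Values are log2 ratios with the median of each array set to 0, given as mean ± SD (n = 4). Values above 0 are taken to be higher in High Efficiency muscle, which is likely but not certain: the labels put that RNA in channel 2, but the numerator is not stated. With Cy3 as the numerator every sign below turns. A ratio gives no level of a gene, so the tissue could not be checked by how strongly muscle markers were expressed. In a piece of muscle, fewer cells of a type and less RNA per cell cannot be told apart.

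Thin filaments are polar. Their barbed ends are anchored in the Z-disc and capped by CapZ, a dimer of an alpha and a beta subunit, and their pointed ends reach towards the middle of the sarcomere and are capped by tropomodulins. Leiomodins are relatives of tropomodulins that nucleate actin filaments and lengthen them at the pointed end, and the balance of leiomodin and tropomodulin helps to set filament length. In chickens TMOD1 (E-Tmod) is the form of heart and slow skeletal fibres, while TMOD4 (Sk-Tmod) is the form of fast skeletal fibres. LMOD2 is a leiomodin of heart and skeletal muscle, and CAPZA2 encodes an alpha subunit of CapZ. The breast muscle of the chicken is made almost wholly of fast fibres.

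At the pointed end, the leiomodin LMOD2 and the slow-fibre tropomodulin stood below the array median, and the fast-fibre tropomodulin stood above it. The leiomodin gene LMOD2 had log2 ratios of -1.82, -1.78, -1.60 and -1.33 on arrays 1 to 4. All 4 values were below 0, and array 4 was nearest to 0. The mean was -1.63 ± 0.22. Relative to the array median this is 3.10-fold lower in High Efficiency than in Low Efficiency muscle. Single arrays lay between 2.51-fold and 3.53-fold. LMOD2 had the 17th lowest mean ratio of the 3494 genes, and on single arrays between 1.75% and 3.63% of genes had a lower ratio.

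TMOD1, the tropomodulin of heart and slow fibres, had log2 ratios of -1.24, -1.06, -1.03 and -1.03 on arrays 1 to 4. Arrays 2 to 4 lay within a narrow band, and array 1 stood lower. The mean was -1.09 ± 0.10, which is 2.13-fold lower in High Efficiency muscle relative to the array median. Between 4.04% and 5.78% of genes had a lower ratio on a given array, and by its mean TMOD1 ranked 60th from the lowest.

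TMOD4, the fast-fibre tropomodulin, had log2 ratios of 0.58, 0.52, 0.59 and 0.52 on arrays 1 to 4. These 4 values spanned 0.07 log2 units. The mean was 0.55 ± 0.04, which is 1.47-fold higher in High Efficiency muscle relative to the array median. Between 5.58% and 7.13% of genes had a higher ratio on a given array, and with this centring only 4.38% of genes had a smaller SD.

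At the barbed end, CAPZA2, the CapZ alpha subunit, had log2 ratios of 0.68, 0.82, 0.74 and 0.59 on arrays 1 to 4. All were above 0, with array 2 highest and array 4 lowest. The mean was 0.71 ± 0.10, 1.63-fold higher in High Efficiency muscle relative to the array median and the 42nd highest of the 3494 genes.

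**Figure D1:**
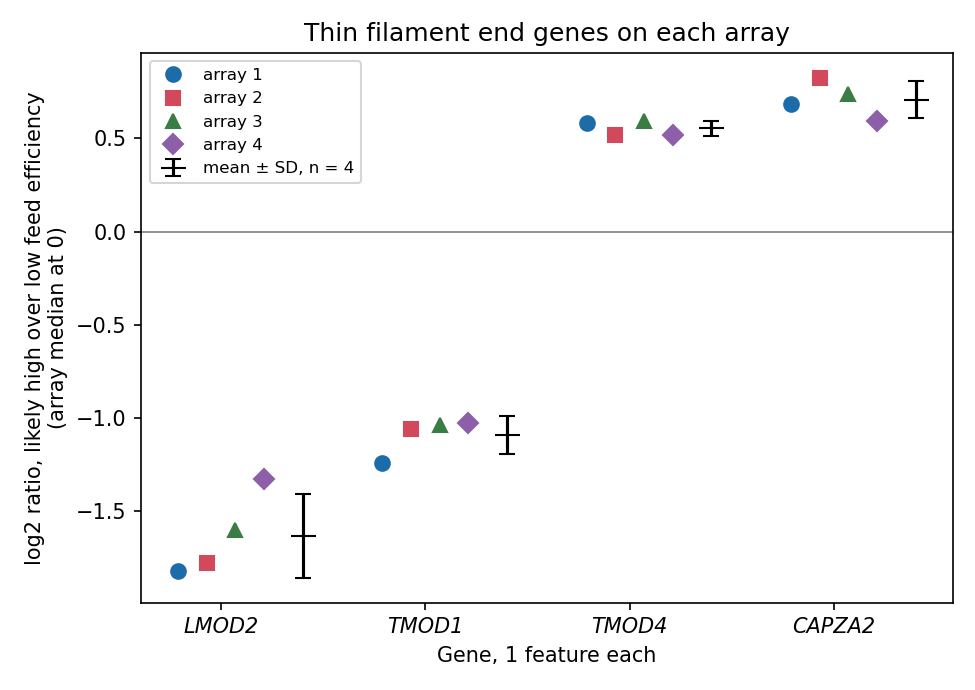
Log2 ratio (y axis, array median at 0, likely High Efficiency over Low Efficiency) of the 4 end genes (x axis), with a symbol for each of the 4 arrays and the mean ± SD beside them. LMOD2 and TMOD1 lie below 0 on every array, and TMOD4 and CAPZA2 lie above 0 on every array.

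With the array median at 0, the 4 genes differed in spread as well as in direction. The median SD over all genes was 0.17 log2 units. LMOD2 varied more than that, and 57.6% of genes had a smaller SD. TMOD1 and CAPZA2 were alike in spread, with 29.0% and 27.8% of genes at a smaller SD. The array with the lowest LMOD2 ratio, array 1, was also lowest for TMOD1, whereas the highest ratio was on array 3 for TMOD4 and on array 2 for CAPZA2. Spread and order both moved with the centring. As deposited, the SDs were 0.19 for LMOD2, 0.08 for TMOD1, 0.19 for TMOD4 and 0.19 for CAPZA2, so TMOD4 no longer had the smallest. Array 2 was then lowest for LMOD2 and array 3 for TMOD1.

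**Figure D2:**
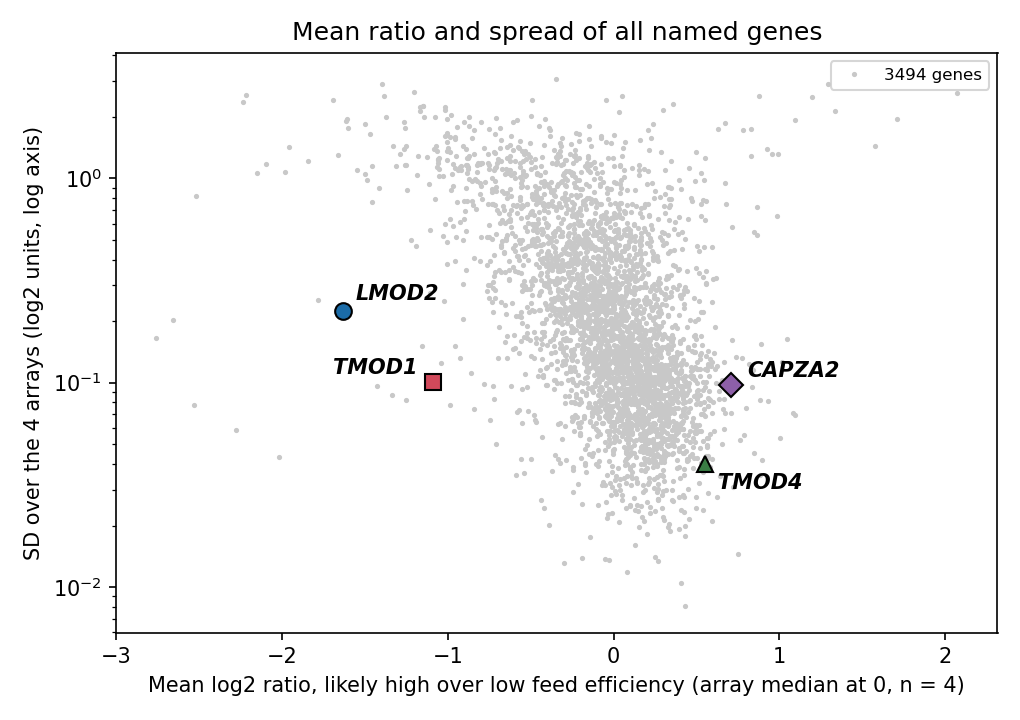
Mean log2 ratio (x axis, array median at 0) against the SD over the 4 arrays (y axis, log2 units on a log scale) for the 3494 named genes as grey points, with the 4 end genes marked. LMOD2 and TMOD1 lie at the left with SDs of 0.22 and 0.10, and TMOD4 lies near the lower edge with an SD of 0.04.

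How far the higher pair stood above 0 depended on where 0 was set, while the lower pair stayed far below 0. In the values as deposited, where arrays 1 to 4 had medians of -0.19, -0.49, -0.58 and -0.52, LMOD2 averaged -2.07 ± 0.19 and TMOD1 -1.53 ± 0.08. With the least variable features of the arrays at 0, LMOD2 averaged -1.79 ± 0.23 and TMOD1 -1.25 ± 0.10. CAPZA2 averaged 0.27 ± 0.19 as deposited and 0.55 ± 0.09 with the least variable features at 0. Its deposited log2 ratios were 0.50, 0.34, 0.16 and 0.08 on arrays 1 to 4, all above 0.

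TMOD4 had deposited log2 ratios of 0.40, 0.03, 0.02 and 0.01 on arrays 1 to 4. On arrays 2 to 4 its dyes were thus read at almost equal strength, and only array 1 stood clearly above 0. The deposited mean was 0.11 ± 0.19, a value smaller than its spread. With the median of each array at 0, a feature with a deposited log2 ratio of 0 would stand at 0.49, 0.58 and 0.52 on arrays 2 to 4, beside 0.52, 0.59 and 0.52 for TMOD4.

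A deposited log2 ratio within 0.005 of 0 on at least 3 arrays, as spots saturated in both dyes would show, was found for 160 features, which were set aside. TMOD4 is not one of them. It is among a further 43 features, measured on all 4 arrays, that lay within 0.05 of 0 on at least 3 arrays. LMOD2, TMOD1 and CAPZA2 had 0 arrays within 0.05 of 0. Fluorescence of the single dyes was not analysed here, and the part of saturation in the TMOD4 ratio was not tested. With the least variable features at 0, TMOD4 averaged 0.39 ± 0.04.

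**Figure D3:**
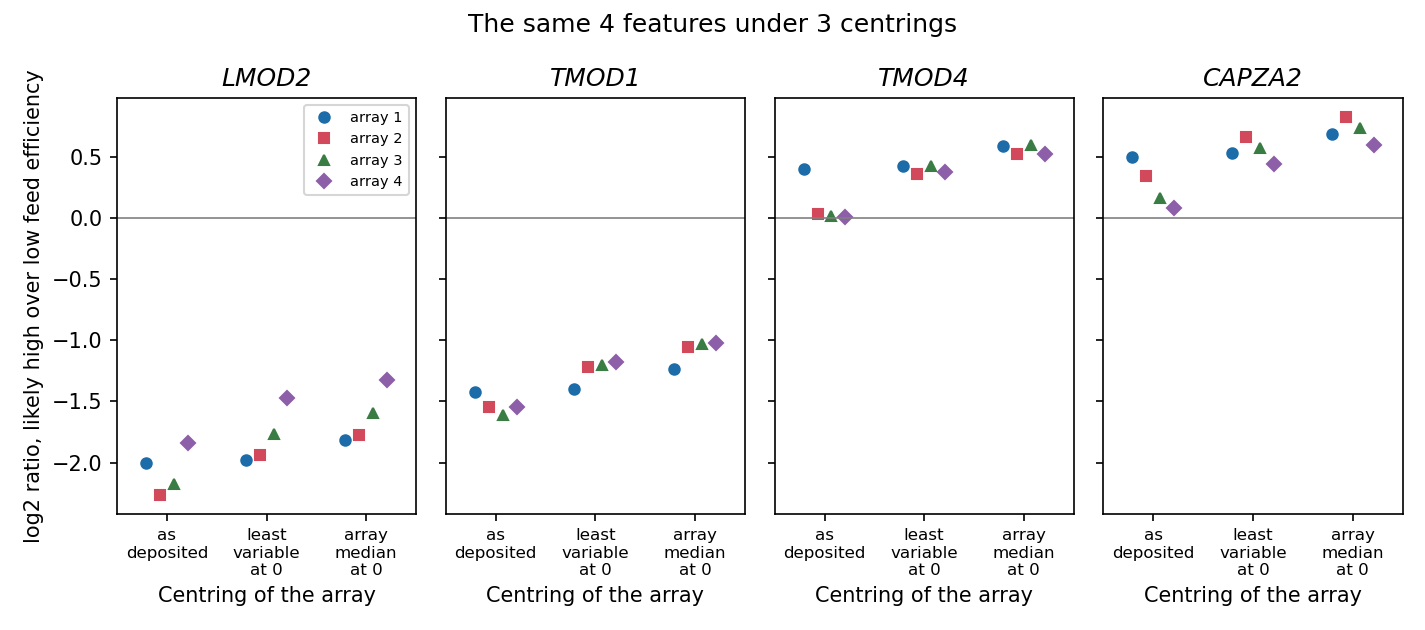
Log2 ratio (y axis) of LMOD2, TMOD1, TMOD4 and CAPZA2, 1 panel each, on the 4 arrays under 3 centrings (x axis): as deposited, with the least variable features at 0 and with the array median at 0. LMOD2 and TMOD1 stay below -1 in all 3, and the deposited TMOD4 values of arrays 2 to 4 lie at 0.

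The difference between the ratios of 2 genes on the same array does not depend on the centring. TMOD1 minus TMOD4 was -1.82, -1.58, -1.63 and -1.55 on arrays 1 to 4. The slow-fibre tropomodulin was thus the lower of the pair on all 4 arrays, with a mean difference of -1.64 ± 0.12. This is a 3.13-fold lower ratio of TMOD1 to TMOD4 in High Efficiency muscle than in Low Efficiency muscle. LMOD2 minus TMOD1 was -0.58, -0.72, -0.57 and -0.30, so the leiomodin stood below the tropomodulin on every array (mean -0.54 ± 0.18). Their 4 values did not overlap. TMOD4 minus CAPZA2 ranged from -0.30 to -0.07, with a mean of -0.15 ± 0.10. CAPZA2 was above TMOD4 on each array, but the ranges of the 2 genes overlapped, since the lowest CAPZA2 value was 0.591 and the highest TMOD4 value 0.594. Different features can compress a ratio to different degrees, which was not tested.

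**Figure D4:**
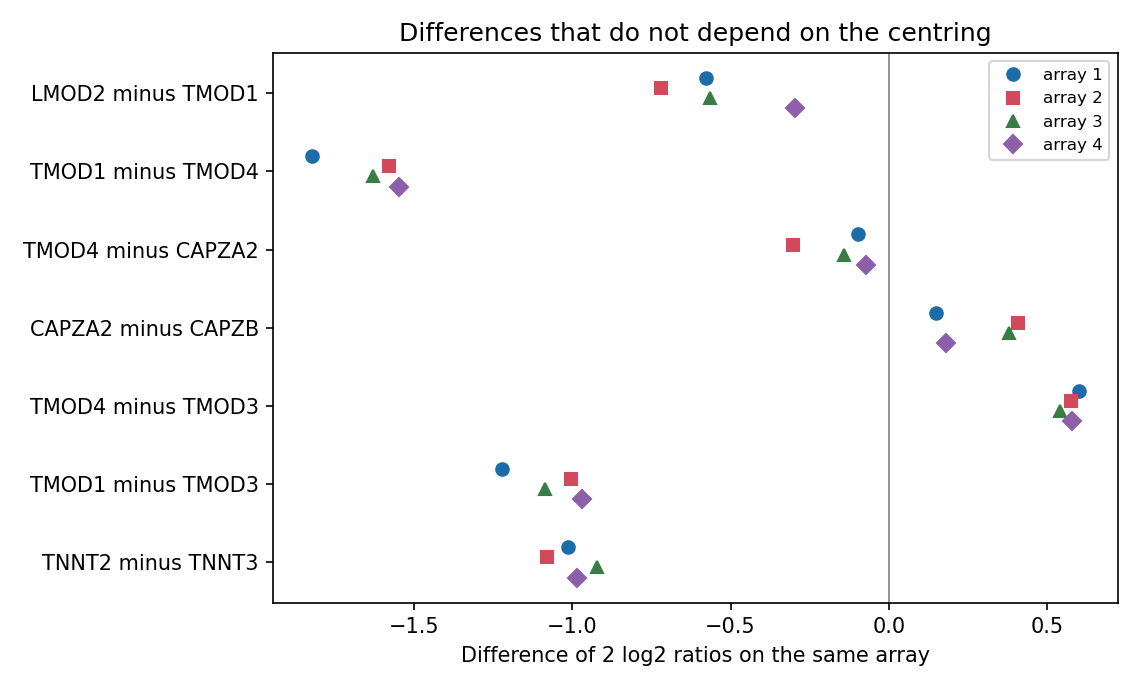
Difference between the log2 ratios of 2 genes on the same array (x axis) for 7 pairs of genes (y axis), with a symbol for each of the 4 arrays. TMOD1 minus TMOD4 lies between -1.82 and -1.55, TNNT2 minus TNNT3 between -1.08 and -0.92, and CAPZA2 minus CAPZB between 0.15 and 0.41. TNNT3 is the mean of its 2 features.

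Counts of called genes in the lists below can be read against all 3494 genes, of which limma called 18.5% higher and 6.10% lower with the array median at 0. These shares were 6.90% and 11.8% under the centring on the least variable features, called the stable-feature centring below. They were 0.258% and 32.7% as deposited, and each list count is given under all 3 centrings.

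Among the relatives of these proteins at the pointed end, 1 of 4 listed genes was measured. The leiomodins LMOD1 and LMOD3 and the tropomodulin TMOD2 were not among the symbols of the platform. TMOD3, the broadly expressed tropomodulin, had log2 ratios of -0.02, -0.05, 0.05 and -0.06 and did not pass the test (-0.02 ± 0.05, limma adjusted p = 0.784), although it was called lower as deposited (-0.46, adjusted p = 0.0398). It lay at the array median, between the other tropomodulins. TMOD4 minus TMOD3 was 0.57 ± 0.02 and TMOD1 minus TMOD3 was -1.07 ± 0.11.

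At the barbed end, 7 of 26 listed genes were measured, of which 2 rose, 0 fell and 5 did not pass, at a list median of -0.11. The counts were again 2 higher and 0 lower under the stable-feature centring, and 0 higher and 4 lower as deposited. CAPZB, the beta subunit that pairs with CAPZA2 in CapZ, had log2 ratios of 0.53, 0.42, 0.36 and 0.41 (0.43 ± 0.07, adjusted p = 0.0119). Both measured subunits of CapZ thus stood above the array median on all 4 arrays, and CAPZA2 was the higher on each (mean difference 0.28 ± 0.13). Gelsolin, GSN, which severs and caps filaments at the barbed end, also rose (0.38 ± 0.04, adjusted p = 0.0111). As deposited, CAPZB (-0.01) and GSN (-0.06) were just below 0, and under the stable-feature centring both still passed (adjusted p = 0.0369 and 0.0361).

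The 5 others at the barbed end did not pass. Their means were 0.15 ± 0.19 for villin, VIL1, -0.30 ± 0.37 for VILL, -0.29 ± 0.27 for the capping and bundling protein EPS8, -0.13 ± 0.33 for myotrophin, MTPN, an inhibitor of CapZ, and -0.11 ± 0.17 for CARMIL1, which binds CapZ and weakens its hold on the filament. Array 1 lay apart from the other arrays in VIL1. TTC17 had a value on 2 arrays only.

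In the body of the thin filament, of 9 measured genes of 27 listed, 2 rose, 3 fell and 4 did not pass, with a list median of -0.36. Under the stable-feature centring 1 was higher and 4 were lower, against 0 higher and 6 lower in the deposited values. Slow troponin I, TNNI1, had log2 ratios of -1.51, -1.29, -1.43 and -1.47 (-1.43 ± 0.10, adjusted p = 0.00444), values between those of LMOD2 and TMOD1 in the mean. Cardiac troponin T, TNNT2, fell less (-0.59 ± 0.04, adjusted p = 0.00791), and ACTA2, an alpha actin of smooth muscle, fell to -0.36 ± 0.09 (adjusted p = 0.0195). Fast troponin T, TNNT3, rose (0.41 ± 0.07, adjusted p = 0.0122), although its 2 features stood at 0.75 ± 0.14 and 0.08 ± 0.08. ACTG2, a gamma actin of smooth muscle, rose as well (0.38 ± 0.09, adjusted p = 0.0168). Actin genes are nearly identical in their coding sequence, and which of them a feature reads was not tested.

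The cardiac and fast forms of troponin T can be set beside the tropomodulins. The slow skeletal form, TNNT1, was not among the symbols of the platform. TNNT2 minus TNNT3 was -1.01, -1.08, -0.92 and -0.99 on arrays 1 to 4. These values have the sign of TMOD1 minus TMOD4 and a smaller size on every array. Their size rests on the mean of the 2 TNNT3 features, which stood apart at 0.75 ± 0.14 and 0.08 ± 0.08. Nebulin, NEB, which runs along the thin filament in skeletal muscle, did not pass (-0.20 ± 0.18, adjusted p = 0.176). LMOD2 minus NEB was -1.43 ± 0.39 and TMOD4 minus NEB was 0.75 ± 0.15. Tropomyosin TPM3 did not pass either (-0.18 ± 0.07, adjusted p = 0.0651). TPM1 and TNNC1 were at a deposited ratio of 1 and were not measured.

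In the Z-disc, where barbed ends are anchored, 13 of 41 listed genes were measured, of which 2 rose, 2 fell and 9 did not pass, with a list median of 0.06. The counts were 1 higher and 4 lower under the stable-feature centring and 0 higher and 6 lower as deposited. CSRP3, the muscle LIM protein, fell most (-2.53 ± 0.08, adjusted p = 0.000717), and myotilin, MYOT, which binds filamins and alpha-actinin, fell as well (-0.36 ± 0.14, adjusted p = 0.0339). BAG3, a co-chaperone that acts on CapZ and filamins, rose (0.39 ± 0.06, adjusted p = 0.0125), as did myopalladin, MYPN (0.27 ± 0.04, adjusted p = 0.0202). Alpha-actinin ACTN4 (-0.33 ± 0.23) and the M-band gene MYOM2 (0.29 ± 0.15) did not pass. Titin, TTN, was read by 6 features whose means ran from -0.19 to 0.51, and their average of 0.06 ± 0.13 did not pass. Muscle alpha-actinin ACTN2 was at a deposited ratio of 1 and was not measured.

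Genes of actin assembly and turnover showed the smallest share of calls among these lists that held any. Of 17 measured genes of 65 listed, 3 rose (17.6%, near the share of all genes), 0 fell and 14 did not pass, with a list median of -0.05. The stable-feature centring gave 1 higher and 2 lower, and the deposited values 0 higher and 5 lower. The genes that rose were the Arp2/3 complex subunits ARPC3 (0.38 ± 0.04, adjusted p = 0.0115) and ACTR2 (0.29 ± 0.10, adjusted p = 0.0333), which nucleate branched filaments, and the muscle cofilin CFL2 (0.25 ± 0.02, adjusted p = 0.0207), which severs filaments. The formin DIAPH2 (0.25 ± 0.11), COBL (0.28 ± 0.15) and EVL (-0.63 ± 0.39) did not pass.

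Over the 5 actin and thin filament lists, 14 of 47 measured genes were called by limma at an adjusted p under 0.05, 9 higher and 5 lower. That is 29.8% of the list members, against 24.6% of all 3494 genes. By direction, 19.1% were higher and 10.6% lower, against 18.5% and 6.10% of all genes. The median of the 47 genes was -0.09, and that of all genes was 0.01. As deposited, all 47 genes were below 0, from -2.97 to -0.01, but genes in general stood low there. The deposited median was -0.53 for the 47 genes and -0.43 for all 3494. Of the 47, 0 were called higher and 22 lower, 46.8% of the list members against 32.9% of all genes in either direction. Under the stable-feature centring, 5 were higher and 10 lower, 31.9% of the list members against 18.7% of all genes. The gap to all genes was thus smallest with the array median at 0, and it was not tested. The 5 that passed as higher under the stable-feature centring were CAPZB, GSN, TNNT3, ARPC3 and BAG3. Without array 1, 2, 3 and 4, the 14 calls became 15, 1, 1 and 3.

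Markers of slow and cardiac muscle moved with LMOD2 and TMOD1. Of 13 measured genes of 21 listed, 10 fell (76.9%, against 6.10% of all genes), 0 rose and 3 did not pass, with a list median of -0.75 and array medians between -1.01 and -0.75. LMOD2 and TMOD1 were below the list's median on every array. In this list 11 were lower and 0 higher under the stable-feature centring, and 12 were lower and 0 higher as deposited. The deepest falls in the list were those of the light chain MYL3 (-2.66 ± 0.20, adjusted p = 0.00366) and the myosin heavy chains MYH15 (-2.28 ± 0.06, adjusted p = 0.000717) and MYH7B (-2.52 ± 0.82, adjusted p = 0.016), and MYH7 (0.72 ± 0.58) did not pass. Without the 3 genes that stand in this list as well, 12 of the other 44 actin and thin filament genes were called, 9 higher and 3 lower. Of the fast-fibre list, 4 of 24 genes were measured, with TNNT3 higher, parvalbumin, PVALB, lower (-0.96 ± 0.15, adjusted p = 0.00791), and the light chain MYL1 (-0.20 ± 0.28) and MYOZ1 (0.15 ± 0.11) not passing. The fast-fibre list had 1 higher and 1 lower under the stable-feature centring, and 0 higher and 2 lower as deposited. The part of the slow-fibre share of the samples in the LMOD2 and TMOD1 ratios was not tested.

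Because chicken erythrocytes are nucleated and hold tropomodulin, their markers are given beside the tropomodulin genes. Of 9 measured genes of 32 listed, 2 rose (22.2%, near the 18.5% of all genes), 0 fell and 7 did not pass, with array medians of the list between -0.03 and 0.15. The alpha globin HBA1 rose (0.43 ± 0.02, adjusted p = 0.00893), and so did the Rh family gene RHCE (0.20 ± 0.04, adjusted p = 0.04). The globins HBE1 (-0.39 ± 0.32) and HBZ (-0.80 ± 0.91) did not pass. As deposited, HBA1 stood at -0.01 and RHCE at -0.24, and under the stable-feature centring RHCE did not pass (adjusted p = 0.505). The list counts were 1 higher and 0 lower under the stable-feature centring, and 0 higher and 2 lower as deposited. The part of the erythrocyte share of the samples in the TMOD1 and TMOD4 ratios was not tested.

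Of the other cell types, 2 of 5 measured smooth muscle genes fell (40%, against 6.10% of all genes). They were ACTA2 and caldesmon, CALD1 (-0.25 ± 0.04, limma adjusted p = 0.0239). Smoothelin, SMTN (-0.26 ± 0.13), and the smooth muscle myosin MYH11 (0.08 ± 0.07) did not pass. Of the 5, 3 were lower under the stable-feature centring (60%, against 11.8% of all genes) and 4 as deposited (80%, against 32.7%). The smooth muscle actin ACTG2, which stands only in the thin filament list, rose instead (0.38 ± 0.09, limma adjusted p = 0.0168). It did not pass under the stable-feature centring (adjusted p = 0.0556) or as deposited (adjusted p = 0.651). Among satellite cell and regenerating fibre genes 3 of 7 rose (42.9%, against 18.5% of all genes) and 0 fell. Those that rose were MYOD1 (0.53 ± 0.04), PAX7 (0.34 ± 0.09) and the embryonic acetylcholine receptor subunit CHRNG (0.28 ± 0.10). Only MYOD1 of these 7 passed as higher under the stable-feature centring (PAX7 adjusted p = 0.0775, CHRNG 0.194), and as deposited 0 were higher and 1 lower, with PAX7 and CHRNG below 0. Of 9 leukocyte genes 2 fell (22.2%, against 6.10% of all genes) and 0 rose. CD83 (-0.50 ± 0.04) and JCHAIN (-0.73 ± 0.29) fell, while CD3E (-0.66 ± 0.43) and CD4 (-0.22 ± 0.33) did not pass. The median of the leukocyte list was -0.40 and its highest mean was -0.08. The lower genes numbered 4 under the stable-feature centring (44.4%, against 11.8% of all genes) and 8 as deposited (88.9%, against 32.7%). Of 7 endothelial genes 0 were called by limma, with 1 at an unadjusted p under 0.05 and 0 called with robust moderation or an unmoderated statistic. The stable-feature centring gave 0 as well, and the deposited values gave 3 lower: EGFL7, CLDN5 and SOX18 (adjusted p = 0.0476, 0.0202 and 0.0423). Of 13 fibroblast and adipocyte genes 4 rose (30.8%, against 18.5% of all genes) and 2 fell (15.4%, against 6.10%). Among them were FABP4 (0.79 ± 0.06), POSTN (0.57 ± 0.04) and COL6A1 (-0.34 ± 0.04). The balance turned with the centring, to 2 higher and 5 lower under the stable-feature centring and 0 higher and 7 lower as deposited.

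The genes most like each end gene were sought by the root mean square difference of log2 ratio over the 4 arrays, which needs no test and says nothing of shared control. Nearest to LMOD2 were TNNI1 (0.31), the slow myosin-binding protein MYBPC1 (0.33), ADPRHL1 (0.38), phospholamban, PLN (0.42), and the pentraxin PTX3 (0.44). TMOD1 was the 7th nearest gene to LMOD2, at 0.56. Few genes lay so low, and these distances were larger than those around the other 3 genes.

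Nearest to TMOD1 were NUF2 (0.11), the lens protein gene LGSN (0.11), the phospholipid transfer protein PLTP (0.17), the heart-type lactate dehydrogenase LDHB (0.18) and PTX3 (0.21). LMOD2 came 82nd from TMOD1. Nearest to TMOD4 were CRCP, FGFR1, OTUD3, MOSPD1 and COX7A2L, all between 0.03 and 0.04. On arrays 2 to 4 the ratios of these genes lay between 0.47 and 0.65. A feature with dyes read at equal strength as deposited would stand at 0.49, 0.58 and 0.52 on these arrays. As for TMOD4, the part of saturation in these ratios was not tested. CAPZA2 was 218th nearest to TMOD4, in a range of ratios where many genes lie close together. Nearest to CAPZA2 were LOC420807 (0.05), SH3YL1 (0.07), TMEM59 (0.07), the complex I subunit NDUFB10 (0.09) and SH3BGR (0.09), and TMOD4 was its 57th nearest.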

How the data were processed

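The deposited values are log2 ratios of both dyes within each array, for 45220 features. The scanner, the background correction and the normalization were not stated. Between 4625 and 5576 values per array were empty, and between 107 and 157 at a ceiling of 16.61 were treated as not measured. The 160 features that lay within 0.005 of 0 on 3 or 4 arrays were left out, and each array was centred on its median. Symbols came from the platform annotation (4391 features with 1 symbol), 410 of them updated through the RefSeq table of GRCg7b. A gene's value was the mean over its features measured on all 4 arrays. Between pairs of arrays, Pearson's r across the 3494 genes, which are not independent replicates, was 0.20 to 0.31.

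An intercept-only limma 3.58.1 model (R 4.3.3; lmFit, eBayes) tested all genes against 0 (two-sided), and genes with a Benjamini-Hochberg adjusted p under 0.05 were called. These p-values reflect only how far the 4 arrays differ among themselves, and a dye effect common to them is not covered. The fit was tested on generated data with known changes. It recovered 55 of 100 changes of 1.5-fold and 75 of 100 changes of 2-fold, with 5 false calls. A gene that did not pass may therefore still differ. The least variable features are the 10% with the smallest SD of the log2 ratio over the 4 arrays. The members, gene lists and tests were chosen with earlier results of these data known. Genes named were the 4 end genes and the 5 genes nearest to each, all measured end-protein relatives, the 6 smallest p of each other actin list, members whose features differ in sign, and markers by smallest p or list order. NEB was added, and also the neighbouring genes, after values were seen.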

Additional observations from a re-analysis of the deposited data

Results flagged for a closer look

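Single arrays that stood apart were sought with Dixon's ratio, the gap of the extreme array to its nearest neighbour over the whole range, against its 95% critical value for 4 arrays. Chance passes about 1 in 20 such groups, and 6.35% of all 3494 genes passed. With the array median at 0, TMOD1 passed with a ratio of 0.849, since array 1 stood at -1.24 and the others between -1.06 and -1.03. Without array 1 its mean was -1.04. This depends on the centring: as deposited, array 1 was instead the highest for TMOD1, at -1.425, with the others between -1.611 and -1.542. The TMOD4 ratio as deposited passed with 0.926, array 1 being at 0.40 and the others between 0.01 and 0.03. The deposited median of all features also stood apart on array 1, at -0.19 against -0.49, -0.58 and -0.52. With the array median at 0, TMOD4 did not pass (0.135). Among other genes named here, VIL1 (0.873), TNNT3 (0.877), DIAPH2 (0.908), MYOZ1 (0.865), CD4 (0.838), COX7A2L (0.902) and SETDB1 (0.884) passed.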

How the results depend on the processing

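No array turned the sign of any end gene when left out, and no alternative run did. Leaving out each array in turn moved LMOD2 between -1.73 and -1.57, TMOD1 between -1.11 and -1.04, TMOD4 between 0.54 and 0.57, CAPZA2 between 0.67 and 0.75, TMOD1 minus TMOD4 between -1.68 and -1.58, and LMOD2 minus TMOD1 between -0.62 and -0.48. As deposited, LMOD2 was -2.07, TMOD1 -1.53, TMOD4 0.11 and CAPZA2 0.27, and with the least variable features at 0, TMOD1 was -1.25, TMOD4 0.39 and CAPZA2 0.55. Both centrings lower all genes alike, by 0.44 and 0.16 log2 units. The other alternatives moved the end genes and their differences by less than 1 SD: arrays scaled to one median absolute deviation, quantile normalization, features near a ratio of 1 kept, the median over features, and values on at least 3 arrays.

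Calls were less stable than ratios, and the balance of higher and lower calls in the gene lists moved with the centring. The 861 called genes (648 higher, 213 lower) numbered 404, 4, 5 and 198 without array 1, 2, 3 and 4, and 171 at an adjusted p under 0.01. Of them, 454 passed with the same sign with the least variable features at 0 (241 higher), a comparison chosen after seeing the data, as was leaving out the slow and cardiac genes. With the least variable features at 0, 241 genes were higher and 414 lower, and as deposited 9 were higher and 1142 lower. Other normalizations and feature rules, robust moderation, array weights and an unmoderated t statistic gave between 672 and 985 genes, and between 12 and 20 actin and thin filament genes. The 14 actin and thin filament genes numbered between 1 and 15 when an array was left out, 22 as deposited and 3 at an adjusted p under 0.01. Each array holds 1 within-array ratio of both groups, so the test of these ratios against 0 already uses the pairing on the array. Signal over background is unknown here, which limits the precision of every ratio.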

Other observations

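The measured genes nearest to the end genes on the chromosomes, in the order of protein-coding genes in the RefSeq table of GRCg7b, had ratios of both signs. Of the 16 nearest measured genes, 4 for each end gene, limma called 4 higher, 1 lower and 11 not at all, against 18.5% and 6.10% of all genes. These calls hold for the array median at 0 only, and other centrings were not counted for them. The values as deposited and the stable-feature centring lower all genes by 0.44 and 0.16 log2 units. Near LMOD2, FAM3C (10 gene places away, 0.61 ± 0.14) and the complex I subunit NDUFA5 (2 places, 0.27 ± 0.12) rose and SPAM1 (3 places) fell (-0.32 ± 0.04). Near TMOD1, the peroxisomal enzyme gene HSD17B4, 7 places away, rose (0.42 ± 0.03). Near TMOD4, the histone methyltransferase gene SETDB1, 10 places away, rose (0.88 ± 0.08). Of the 4 genes nearest to CAPZA2, 0 were called by limma, with 0 at an unadjusted p under 0.05 and 0 called with robust moderation or an unmoderated statistic, and their means lay between -0.46 and 0.10.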
